A study of Rattus norvegicus with 6 samples.

Results

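The serine protease precursors that the exocrine pancreas makes for digestion were followed through 6 RNA-seq libraries of rat pancreatic islets. The genes were chosen by name: 4 trypsinogen genes (Prss1, Prss3b, Try5 and LOC683849), 3 chymotrypsinogen genes (Ctrb1, Ctrc and Ctrl) and 3 elastase genes (Cela1, Cela2a and Cela3b). All 10 were present among the 18625 named genes of the table. They were named with earlier results of the same libraries in view, and their difference between the ages is therefore described without a test. LOC683849 carries the number of the gene that RefSeq calls Prss2l1.

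The series compared islets of rats after birth with islets of fetal rats. The postnatal group had 3 libraries, whose titles all say 2 weeks, while their age labels say postnatal weeks 2, 3 and 4 for replicates 1, 2 and 3. The fetal group had 3 libraries of embryonic day 19 (E19). No strain, genotype or treatment was given for either group, and nothing was said of how many animals went into a library, so the spread between replicates may be technical. Each library was total RNA of freshly isolated islets, depleted of ribosomal RNA.

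Pancreatic digestive proteases are made by acinar cells, not by the hormone cells of the islet, and are stored in zymogen granules as inactive precursors. In the gut, enteropeptidase cuts trypsinogen to trypsin, and trypsin then activates the chymotrypsinogens and proelastases. Trypsin cuts proteins after lysine and arginine, chymotrypsin after large hydrophobic residues, and elastases mostly after small or hydrophobic ones. Acinar cells also make trypsin inhibitors, since trypsinogen can activate itself. The acinar cells of the fetal pancreas switch on their enzyme genes at different times, and the transcription factor complex PTF1 binds the promoters of many of them.

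Levels are given as scaled CPM, counts per 1 M reads of a library size adjusted between libraries. The libraries held 28.2 to 29.5 M reads after birth and 26.1 to 37.8 M at E19, and 3 reads were worth 0.0726 to 0.152 scaled CPM. Islet hormone genes were present as labelled, with a summed level of 57719 to 106807 in the postnatal libraries and 1798 to 5205 in the fetal ones. A list of 11 other acinar enzymes summed to 176893 to 515197 in the postnatal libraries and 51695 to 82951 in the fetal ones, so the preparations held much acinar RNA at both ages. Postnatal replicate 1 stood apart with the highest acinar sum, against 191618 and 176893 in postnatal replicates 2 and 3. Fetal replicate 2 stood apart in liver markers, at 6871 against 178 and 302 in fetal replicates 1 and 3, and in erythroid markers, at 10313 against 5142 and 3032. Fewer acinar cells in a preparation and less enzyme RNA in each cell cannot be told apart in such bulk samples.

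The protease genes fell into an order by how much of their postnatal level was present before birth. Ctrb1 stood in the fetal libraries at 49.5% of its postnatal mean, Cela3b at 25.8% and Cela1 at 10.6%. Ctrl stood at 2.63%. Cela2a, Ctrc, Prss3b, Prss1 and LOC683849 stood between 0.903% and 0.315%, and Try5 at 0.0229%. Each class of chymotrypsinogens and elastases thus held genes with high and with low fetal percentages, whereas the 4 trypsinogen genes among the 10 lay at the low end of the order. The further trypsinogen genes described below all stood higher than these 4. Try10 stood at 4.35% and Prss2 at 2.81%, both above Ctrl, Prss3 at 1.18%, LOC286960 at 1.17% and LOC312273 at 0.603%. The postnatal means of LOC683849 and Try5, and so their low percentages, rest mostly on postnatal replicate 1. Their log2 differences between the ages, 6.92 and 7.32, lay close to those of Ctrc (6.93) and Cela2a (7.03). That scale understates the folds of low genes. For each neighbouring pair in the order of the 10 genes the range of log2 differences between single postnatal and single fetal libraries overlapped. These ranges also hold the differences between libraries that the genes share, so the overlap does not decide whether neighbours are separated. Relative to the enzyme median of each library, Ctrb1, Cela3b, Cela1, Ctrl and Cela2a differed in log2 by -3.83, -2.81, -1.57, 0.45 and 2.36. A positive value is higher after birth. Ctrc, Prss3b, Prss1, LOC683849 and Try5 did not keep the order, at 2.25, 3.75, 3.33, 2.25 and 2.64.

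**Figure D1:**
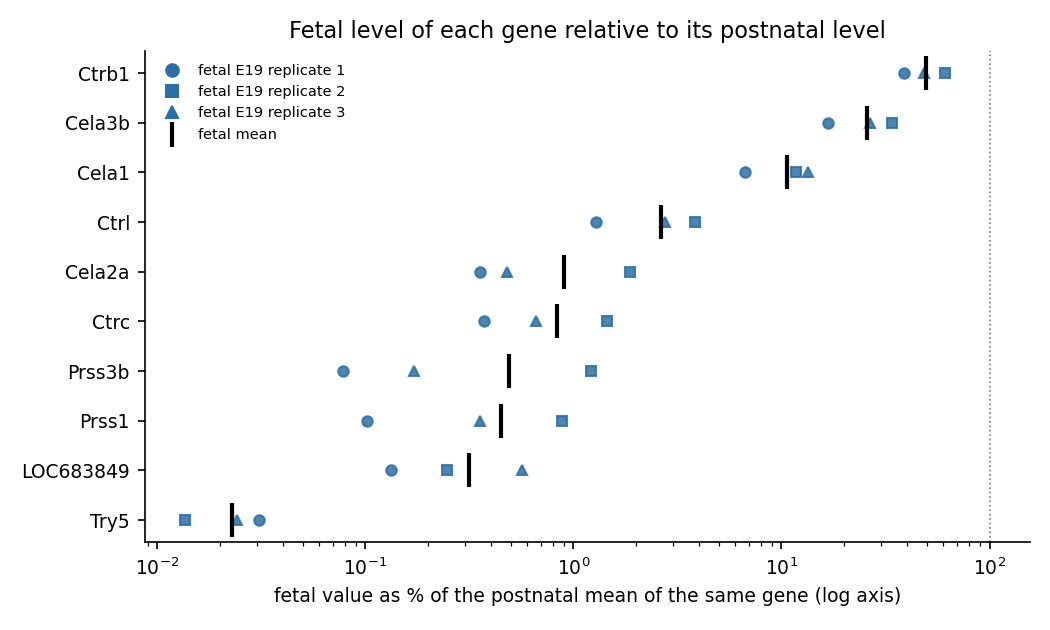
Fetal level of each protease gene as a percentage of its own postnatal mean, on a log axis, with 1 point for each fetal E19 library and a bar for their mean. Ctrb1 lies at 49.5% and Try5 at 0.0229%, with the elastases Cela3b and Cela1 near the top and the 4 trypsinogen genes at the bottom. The postnatal means of LOC683849 and Try5 rest mostly on postnatal replicate 1.

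Over all genes, 63.1% of the 12926 tested passed limma's test at a Benjamini-Hochberg adjusted p under 0.05, with 30.0% of the genes higher and 33.1% lower after birth. These are 3874 higher and 4278 lower genes; after rescaling to the plain sum of each column, which moved the median of all genes to -0.36, 1780 were higher and 5088 lower. Of the 10 protease genes, 9 were among those called higher and Ctrb1 was not called; nothing is read from this count, because the genes were chosen on this contrast. In 9 of the 10 genes all postnatal values lay above all fetal values, as they did in 33.1% of the genes tested. The median log2 difference was 6.93 for the 10 genes and -0.03 for all genes tested. Try5 passed the filter on low values only through its postnatal libraries.

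Ctrb1, which encodes the main chymotrypsinogen B, was the gene with the least difference between the ages. It stood at 89924, 32769 and 30372 scaled CPM in postnatal replicates 1, 2 and 3, and at 19782, 31255 and 24792 in fetal replicates 1, 2 and 3. The groups overlapped, since fetal replicate 2 lay above postnatal replicate 3, and postnatal replicate 1 stood far above all other libraries. The log2 difference was 0.85 ± 1.04 (SE), and 0.34 without postnatal replicate 1. This SE, as after every later log2 difference between the ages, is limma's, drawn toward a trend over all genes. It is not the gene's own replicate spread. For Ctrb1 the SD of log2(scaled CPM + 1) was 0.87 after birth and 0.33 at E19. The other chymotrypsinogen genes behaved differently. Ctrl, whose product is a chymotrypsin-like enzyme, stood at 13727, 3897 and 4341 in the postnatal libraries, against 94.2, 281 and 203 in the fetal ones. Ctrc, encoding chymotrypsin C, an enzyme that in humans degrades trypsinogen and so limits its activation, stood at 9585, 4044 and 3213 in the postnatal libraries, against 20.9, 81.7 and 37.1 in the fetal ones. In neither gene did the groups overlap, and the log2 differences were 5.12 ± 0.56 for Ctrl and 6.93 ± 0.54 for Ctrc.

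The elastases showed the same range. Cela3b, which despite its name encodes a protease of limited elastin-degrading activity, stood at 13093, 5791 and 4705 in the postnatal libraries, against 1313, 2675 and 2090 in the fetal ones. Cela1, encoding pancreatic elastase 1, stood at 8251, 2635 and 3357 in the postnatal libraries, against 318, 557 and 637 in the fetal ones. Cela2a, encoding elastase 2A, stood at 19228, 7747 and 8004 in the postnatal libraries, against 41.6, 219 and 55.6 in the fetal ones. The groups did not overlap in any of the 3 genes, but the lowest postnatal value was only 1.76 times the highest fetal value in Cela3b, against 35.4 times in Cela2a. The log2 differences were 1.87 ± 0.47 for Cela3b, 3.11 ± 0.45 for Cela1 and 7.03 ± 0.63 for Cela2a. RefSeq places Cela2a and Ctrc next to each other on chromosome 5, with 0 protein-coding genes between them, and both stood below 1% of their postnatal mean at E19. Cela3b, on the same chromosome with 80 protein-coding genes between it and Cela2a, stood at 25.8%.

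**Figure D2:**
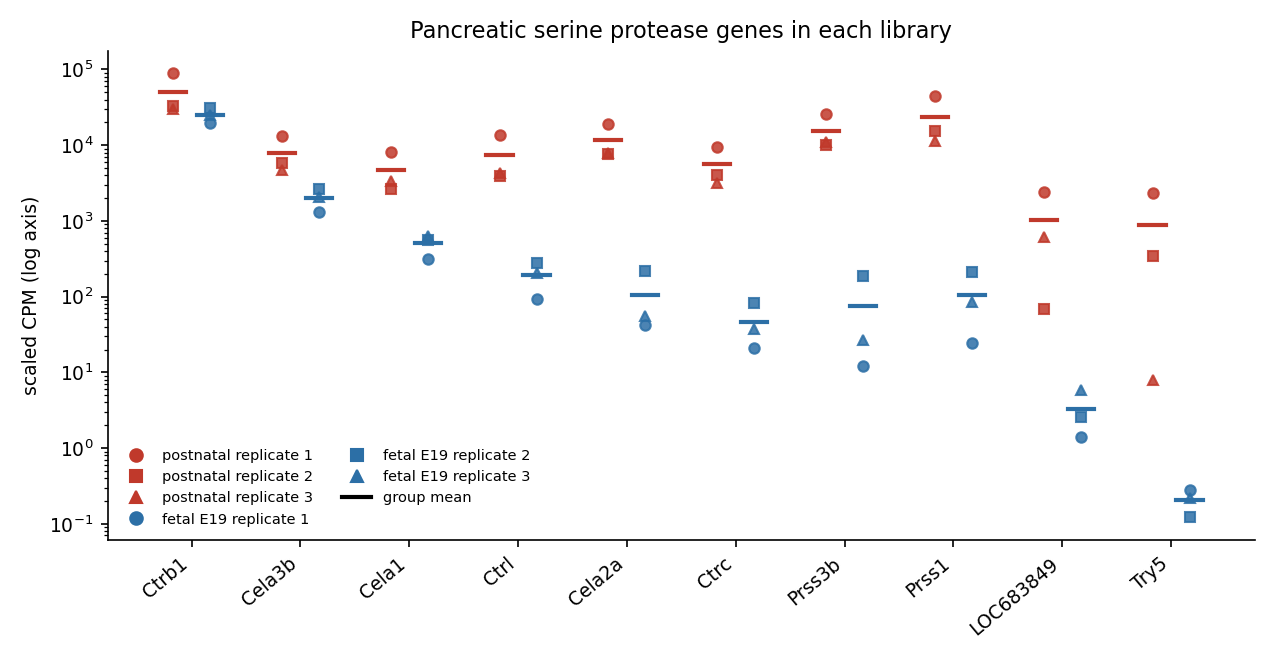
Scaled CPM of each protease gene on a log axis, with postnatal libraries in red left of fetal E19 libraries in blue, 1 point for each library and a bar for each group mean. The groups overlap only in Ctrb1, and Try5 spreads from 7.85 to 2330 among the postnatal libraries.

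The trypsinogen genes were low before birth relative to their postnatal levels, but of the 4 only Try5 was near the value of 3 reads. Prss1, which encodes an anionic trypsinogen, stood at 44764, 15342 and 11335 in the postnatal libraries, against 24.2, 210 and 85.1 in the fetal ones. Prss3b, a further abundant trypsinogen gene, stood at 25662, 9991 and 11013 in the postnatal libraries, against 12.2, 189 and 26.5 in the fetal ones. Neither gene overlapped between the ages, and both were highest before birth in fetal replicate 2, the library with the high liver markers. Their log2 differences were 8.01 ± 0.79 and 8.43 ± 0.90, and 8.73 and 9.54 without that library.

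LOC683849 and Try5 differed from the other trypsinogen genes in their spread after birth. LOC683849 stood at 2429, 68.5 and 617 in postnatal replicates 1, 2 and 3, against 1.38, 2.57 and 5.86 in the fetal libraries. Try5 had 2330, 341 and 7.85 scaled CPM after birth in replicates 1, 2 and 3, against 0.276, 0.121 and 0.216 in the fetal libraries, which rest on 9, 5 and 7 reads. The groups did not overlap in either gene, but the highest postnatal value was 35.4 times the lowest in LOC683849 and 297 times the lowest in Try5, against 2.48 to 3.95 times in the 8 other protease genes. The 2 genes were not low in the same library: LOC683849 was lowest in postnatal replicate 2 and Try5 in postnatal replicate 3. The log2 differences of 6.92 ± 1.13 for LOC683849 and 7.32 ± 1.71 for Try5 depend on which library is kept, at 5.74 for LOC683849 and 5.52 for Try5 without postnatal replicate 1, 8.30 for LOC683849 without postnatal replicate 2, and 9.54 for Try5 without postnatal replicate 3. Each labelled week of age is 1 library, so age and library cannot be told apart here.

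The spread of Try5 and LOC683849 was compared with that of 5 further genes of the same family that are no part of the 10. RefSeq places all 9 trypsinogen genes in 1 cluster on chromosome 4, among 14 variable segments of the T cell receptor beta locus and with 1 other protein-coding gene between them. The 5 further genes were Prss2, Prss3, Try10, LOC286960 and LOC312273, which RefSeq calls Prss3bl1. All 5 rose after birth, and their log2 differences ran from 4.32 to 7.73 with a median of 5.30. LOC312273 rose most, standing at 1229, 612 and 792 in the postnatal libraries, against 0.798, 13.7 and 1.36 in the fetal ones (log2 difference 7.73 ± 0.73; limma adjusted p = 1.11e-04). LOC286960 rose by 5.77 ± 0.28 (limma adjusted p = 1.65e-05). LOC312273 and LOC286960 passed the filter on low values only through their postnatal libraries, so their p values only describe. Prss2, the best expressed of the 5 before birth, stood at 6950, 2807 and 1786 in the postnatal libraries, against 51.2, 112 and 161 in the fetal ones (log2 difference 5.05 ± 0.56).

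Among the 9 trypsinogen genes, the postnatal shares of the family's reads changed by the smallest factors in the abundant Prss1, Prss3b and Prss2. They changed by the largest factors in Try5, LOC683849 and Prss3. In between, Try10 held 0.199%, 0.414% and 0.710% in postnatal replicates 1, 2 and 3. LOC286960 held 0.196%, 0.372% and 0.477%, and LOC312273 1.47%, 2.06% and 3.06%. Prss1 held 53.4%, 51.6% and 43.8% of the family's reads in postnatal replicates 1, 2 and 3, and Prss3b 30.6%, 33.6% and 42.5%. Try5 held 2.78%, 1.15% and 0.0303%, LOC683849 2.90%, 0.230% and 2.38%, and Prss3 0.110%, 1.23% and 0.162%. Each of these 3 genes was high and low in another set of libraries. At E19 the division was different, with Prss2 holding 52.2%, 20.8% and 55.5% of the family's reads in fetal replicates 1, 2 and 3, against 8.29%, 9.43% and 6.90% in the postnatal replicates. The trypsinogen genes are close copies of each other, and how the counting treated reads that match several of them is not given in the sources used here. Values of single copies are uncertain for that reason, and whether this has a part in the spread of Try5, LOC683849 and Prss3 was not tested. Wilson 95% intervals of the shares reached at most 1.73 percentage points from a share of this family, 0.0653 from a share of the 10 genes and 0.0173 from a share of all reads, and cover counting error only.

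**Figure D3:**
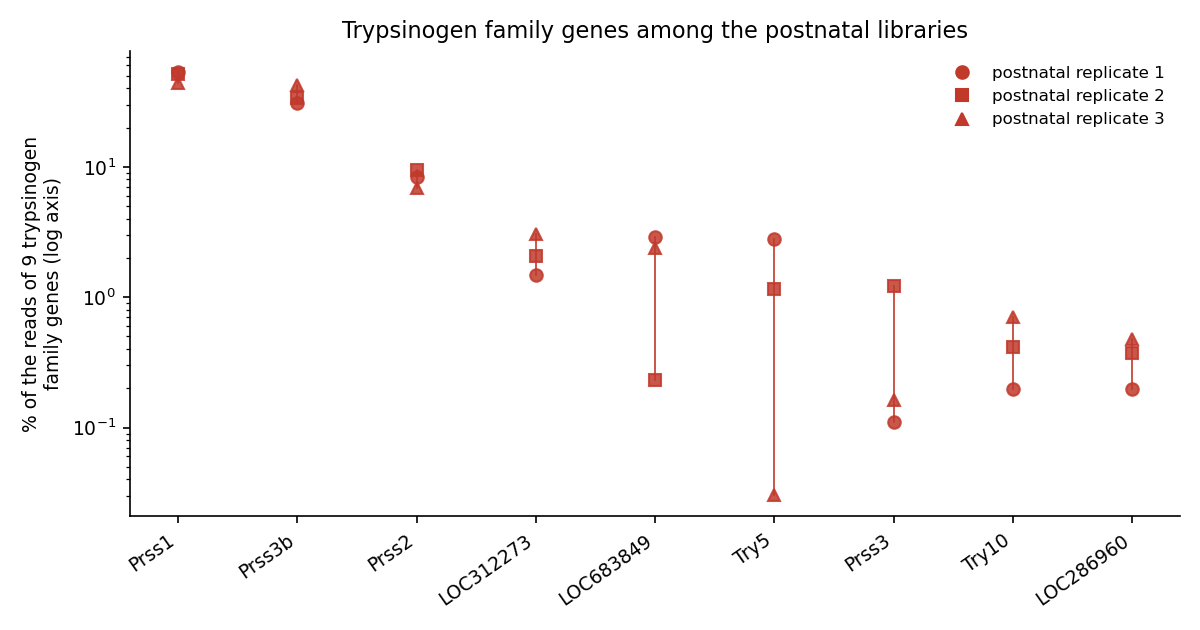
Share of the reads of 9 trypsinogen family genes held by each gene, on a log axis, in the 3 postnatal libraries, with a line spanning the points of each gene. The points of Prss1, Prss3b and Prss2 lie close together, while those of LOC683849, Try5 and Prss3 are far apart, with Try5 between 0.0303% and 2.78%.

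Together the 10 genes took 15.5%, 8.52% and 7.64% of all reads in postnatal replicates 1, 2 and 3, and 2.70%, 3.88% and 2.95% in fetal replicates 1, 2 and 3. The mean was 10.6% ± 4.31 after birth and 3.18% ± 0.618 at E19 (SD, n = 3 each), and without postnatal replicate 1 the postnatal mean was 8.08%. The trypsinogens took 3.34% ± 1.53 of all reads after birth and 0.0204% ± 0.0207 at E19. The elastases took 2.00% ± 0.645 after birth and 0.293% ± 0.0840 at E19, and the chymotrypsinogens 5.21% ± 2.14 after birth and 2.86% ± 0.519 at E19. Longer transcripts give more reads, so such shares are shares of reads and not of RNA molecules.

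The classes divided these reads in similar proportions in the 3 postnatal libraries, although single genes such as Prss1, Try5 and LOC683849 did not keep their shares. Ctrb1 held 39.3%, 39.7% and 39.5% of the reads of the 10 genes in postnatal replicates 1, 2 and 3, against 91.6%, 88.1% and 88.8% in fetal replicates 1, 2 and 3. The trypsinogens held 32.8%, 31.2% and 29.8% in the postnatal libraries, against 0.176%, 1.13% and 0.421% in the fetal ones. The elastases held 17.7%, 19.6% and 20.9% in the postnatal libraries, against 7.74%, 9.73% and 9.96% in the fetal ones. The fetal reads of the 10 genes were thus mostly those of Ctrb1. Cela3b was next at 6.08%, 7.54% and 7.48%, a share that in the postnatal libraries was 5.72%, 7.01% and 6.11%. In reads, the chymotrypsinogens exceeded the trypsinogens 1.51, 1.58 and 1.65 times in the postnatal libraries, against 523, 78.8 and 213 times in the fetal ones. A ratio within a library does not depend on the scaling between libraries.

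**Figure D4:**
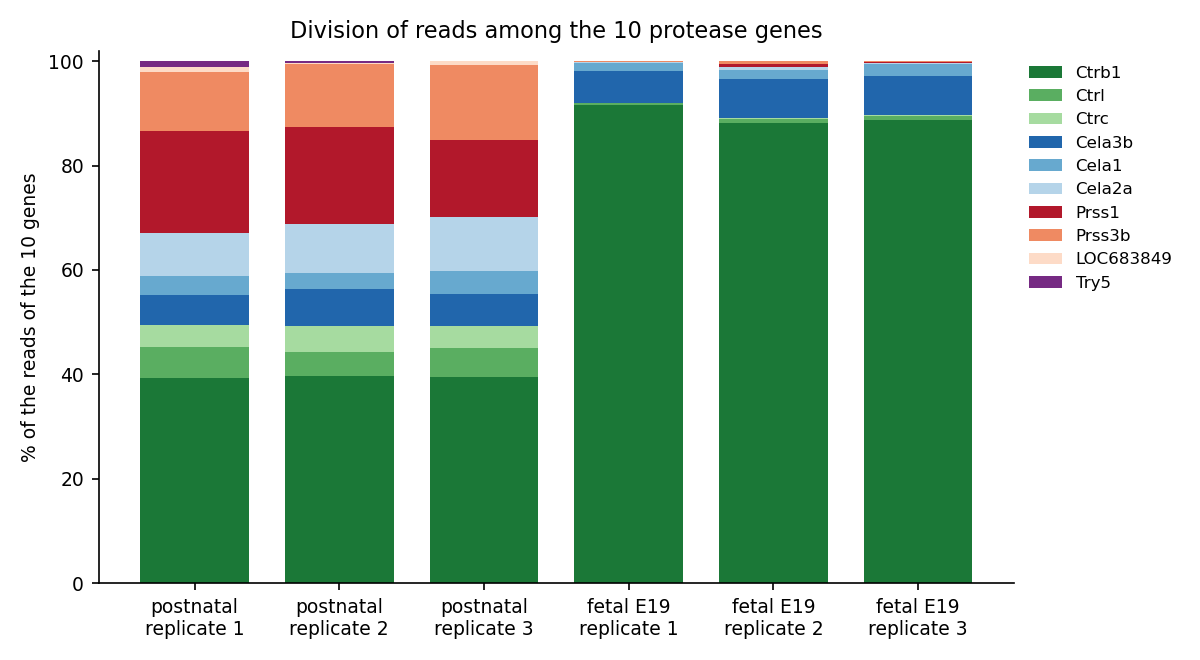
Percentage of the reads of the 10 protease genes held by each gene, in 1 bar for each library, with the postnatal libraries left of the fetal E19 ones. Ctrb1 fills 39.3% to 39.7% of the postnatal bars and 88.1% to 91.6% of the fetal ones.

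The proteases were also set against 11 other acinar enzymes of the same library, among them lipases, carboxypeptidases and the phospholipase Pla2g1b, by subtracting the median log2 level of those enzymes. The enzyme at the median was not the same in each library. After birth it was Pla2g1b (14315) in replicate 1 and Pnlip (4935 and 5495) in replicates 2 and 3. At E19 it was Pnliprp2 (157 and 342) in replicates 1 and 3 and Cpb1 (427) in replicate 2. This reference rose by more than 2.13, the median log2 difference of the single enzymes. Cela1, at 3.11, also rose by more than 2.13. Relative to the reference itself, Ctrb1, Cela3b and Cela1 were lower after birth. Ctrb1 lay 2.62 ± 0.14 above the enzyme median in the postnatal libraries and 6.44 ± 0.45 above it in the fetal ones (SD, n = 3 each). Cela3b lay at -0.04 ± 0.24 in the postnatal and 2.77 ± 0.25 in the fetal libraries, and Cela1 at -0.80 ± 0.10 in the postnatal and 0.76 ± 0.33 in the fetal ones. The trypsinogens Prss1 and Prss3b moved the other way, Prss1 lying at 1.44 ± 0.34 in the postnatal and -1.89 ± 0.82 in the fetal libraries, and Prss3b at 0.95 ± 0.10 in the postnatal and -2.80 ± 1.41 in the fetal ones. Cela2a and Ctrc were also higher relative to the other enzymes after birth, by 2.36 and 2.25 on the log2 scale. Ctrl was close to the enzyme median at both ages, at -0.25 ± 0.16 in the postnatal and -0.69 ± 0.08 in the fetal libraries. In Try5 and LOC683849 the groups overlapped on this scale, and in the 8 other genes they did not.

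**Figure D5:**
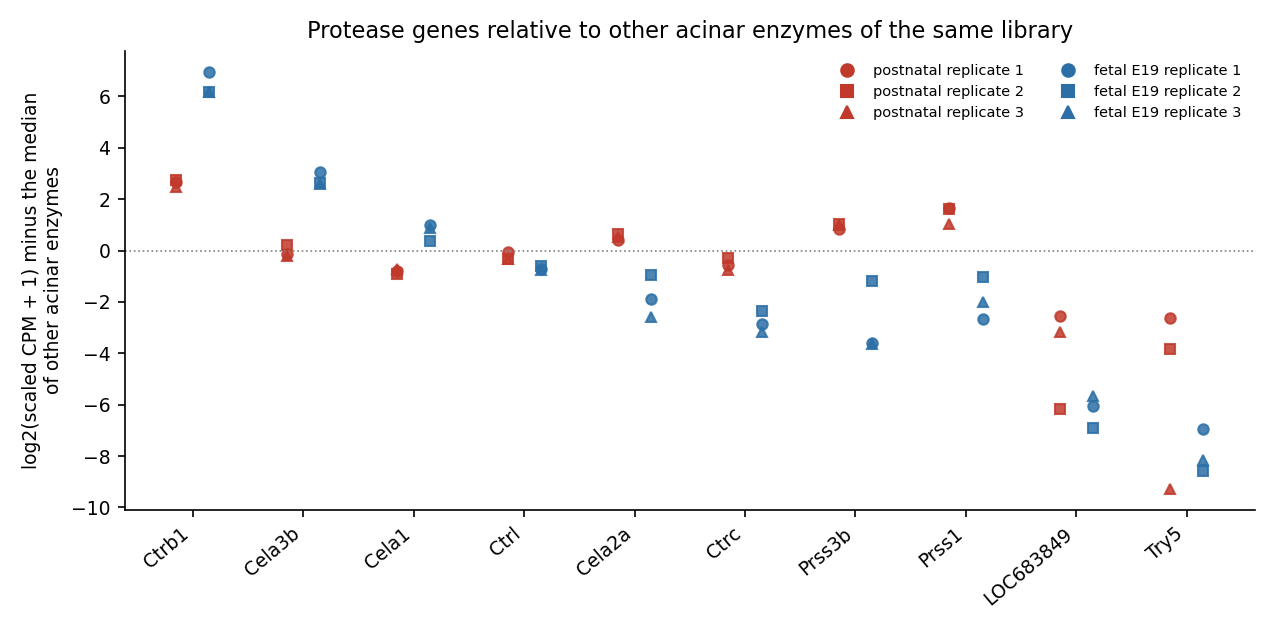
Log2(scaled CPM + 1) of each protease gene minus the median of 11 other acinar enzymes in the same library, with postnatal libraries in red left of fetal E19 libraries in blue. Ctrb1, Cela3b and Cela1 lie lower after birth and Prss1, Prss3b, Cela2a and Ctrc higher, while Try5 and LOC683849 overlap.

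The fetal libraries differed most in some of the genes with low fetal percentages. Prss3b was 15.5 times as high in the highest as in the lowest fetal library, Prss1 8.66 times, Cela2a 5.26 times, LOC683849 4.24 times, Ctrc 3.92 times, Ctrl 2.98 times and Try5 2.28 times, against 1.58 times in Ctrb1, 2.01 times in Cela1 and 2.04 times in Cela3b. Fetal replicate 2 was the highest fetal library in 7 of the 10 genes and fetal replicate 1 the lowest in 9. LOC683849 and Cela1 were highest in fetal replicate 3 and Try5 in fetal replicate 1. The summed level of the other acinar enzymes was also lowest in fetal replicate 1 but highest in fetal replicate 3, at 51695, 77580 and 82951 in fetal replicates 1, 2 and 3. Among those enzymes, Pla2g1b stood at 4.24, 77.9 and 8.54 and Cpb1 at 19.1, 427 and 76.3 in the same libraries, with fetal replicate 2 highest. The part of the high liver and erythroid markers of fetal replicate 2 in these values was not tested. After birth, replicate 1 was the highest postnatal library in all 10 genes, as it was for the sum of the other acinar enzymes.

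Promoter sequences show how the members differ in the letters just upstream of their starts. RefSeq's table for the assembly GRCr8 held a promoter for 9 of the 10 genes, all but Cela2a, and the 250 bases before each start were searched. The motif CACCTG, a form of the E-box to which the bHLH subunits of PTF1 bind, and TTTCCC, the box bound by its RBP subunit, were searched on both strands. Matches to the motifs can share at most a single end base. The early genes Ctrb1 and Cela1 hold both motifs side by side on the same strand, 4 bases apart. Cela3b, which lies between them in the order, holds both motifs 58 bases apart. Prss2, a further family gene at 2.81% of its postnatal mean before birth, also holds them 4 bases apart. The promoters of Ctrb1 and Cela1 are printed to show this arrangement, with both motifs in capitals. The stretch lies at chr19:56566979-56567228 on the minus strand for Ctrb1 and at chr7:133665062-133665311 on the minus strand for Cela1.
Ctrb1: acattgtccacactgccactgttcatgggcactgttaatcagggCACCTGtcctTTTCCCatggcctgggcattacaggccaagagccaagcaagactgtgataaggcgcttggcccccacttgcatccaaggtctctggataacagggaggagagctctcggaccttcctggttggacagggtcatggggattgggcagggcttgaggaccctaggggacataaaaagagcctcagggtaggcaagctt
Cela1: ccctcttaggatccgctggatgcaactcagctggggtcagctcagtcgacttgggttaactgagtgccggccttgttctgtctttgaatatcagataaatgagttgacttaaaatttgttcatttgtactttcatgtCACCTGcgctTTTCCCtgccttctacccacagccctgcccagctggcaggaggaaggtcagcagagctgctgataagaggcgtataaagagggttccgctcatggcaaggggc

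Of the trypsinogens, LOC683849, Prss1 and Try5 are printed to set the 2 genes with the widest postnatal spread beside the abundant Prss1. In LOC683849 the closest pair lies 3 bases apart, with both motifs on the strand opposite to the gene, Prss1 holds both but 53 bases apart, and Try5 holds CACCTG alone. The stretches lie at chr4:71310748-71310997 on the plus strand for LOC683849, at chr4:71330999-71331248 on the plus strand for Prss1 and at chr4:71183696-71183945 on the minus strand for Try5.
LOC683849: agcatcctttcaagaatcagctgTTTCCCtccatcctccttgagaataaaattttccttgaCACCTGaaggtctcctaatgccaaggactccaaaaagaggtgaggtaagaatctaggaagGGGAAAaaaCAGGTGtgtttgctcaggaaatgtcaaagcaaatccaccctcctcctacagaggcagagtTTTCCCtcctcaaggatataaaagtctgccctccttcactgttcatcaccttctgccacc
Prss1: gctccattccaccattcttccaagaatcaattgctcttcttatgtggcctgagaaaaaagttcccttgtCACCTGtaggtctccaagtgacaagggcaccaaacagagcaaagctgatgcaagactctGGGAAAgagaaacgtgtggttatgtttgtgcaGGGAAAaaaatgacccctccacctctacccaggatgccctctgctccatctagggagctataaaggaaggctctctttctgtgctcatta
Try5: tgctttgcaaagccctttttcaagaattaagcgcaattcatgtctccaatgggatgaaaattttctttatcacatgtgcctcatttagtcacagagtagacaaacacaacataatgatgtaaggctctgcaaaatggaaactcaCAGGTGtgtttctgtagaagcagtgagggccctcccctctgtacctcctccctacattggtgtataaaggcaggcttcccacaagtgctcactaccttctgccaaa

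The motif CACCTG was present upstream of 8 of the 9 genes, in all but Ctrc, and in 15.9% of all 33469 promoters of the table. TTTCCC was present in 5 of the 9 and in 22.0% of all promoters. Both were present in 5 of the 9 and in 3.23% of all promoters, and they lay within 20 bases of each other in 3 of the 9, Ctrb1, Cela1 and LOC683849, and in 0.651% of all promoters. The last arrangement did not go with the order of the genes before birth, since Ctrb1 and Cela1 had 2 of the 3 highest fetal percentages and LOC683849 the second lowest. TATAAA, the TATA box, was present on the gene's strand in 6 of the 9 and in 8.06% of all promoters. AAGGTCA, a motif bound by nuclear receptors such as NR5A2, was present in Cela1 alone of the 9 and in 3.99% of all promoters. The 6 pairs among Prss1, Try5, LOC683849 and Prss2 were 56.1% to 68.5% identical in global alignments of these 250 bases, with Try5 and Prss2 the closest pair, while the 49 other pairs of available promoters, LOC312273 included, were 44.6% to 54.2% identical. These matches describe letters only and say nothing of binding.

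Genes that activate or restrain the zymogens were taken from a list of 15, of which 12 were tested. Of these, 6 rose, 3 fell and 3 did not pass, with a median log2 difference of 0.48 against -0.03 for all genes tested, and after rescaling to the plain sum 4 rose and 4 fell. The largest changes were those of the secreted trypsin inhibitor gene Spink1 and its relative Spink1l. Spink1 stood at 548, 199 and 204 in the postnatal libraries, against 5.80, 10.4 and 12.1 in the fetal ones (log2 difference 4.81 ± 0.41; limma adjusted p = 7.88e-05). Spink1l stood at 540, 190 and 194 in the postnatal libraries, against 2.18, 6.34 and 3.70 in the fetal ones (log2 difference 5.83 ± 0.45; limma adjusted p = 5.13e-05). Neither gene overlapped between the ages, and in both postnatal replicate 1 was highest, as in the proteases. Serpini2, encoding an inhibitor of the serpin family made in the pancreas, did not pass the test, at 1183 ± 769 in the postnatal and 1291 ± 414 in the fetal libraries (SD, n = 3 each; limma adjusted p = 0.623). Without postnatal replicate 1 it was called lower, with a log2 difference of -0.76 (limma adjusted p = 0.0409), and over the other alternatives the adjusted p ran from 0.0745 to 0.960. Tmprss15, encoding enteropeptidase, the activator of trypsinogen in the gut, stood at 0.101 in postnatal replicate 1 and at 0 in postnatal replicates 2 and 3, against 0.0921, 0.0484 and 0.0308 in the fetal libraries, no value being above that of 3 reads.

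The lysosomal proteases of the list moved little. Ctsd, encoding cathepsin D, rose by 0.80 ± 0.14, a call lost when the values were rescaled to the plain sum of each column (limma adjusted p = 0.0566), while with any 1 library left out its p stayed at 0.00818 or below. Ctsb, encoding cathepsin B, which can activate trypsinogen, stood at 424 ± 46.7 after birth and 323 ± 35.5 at E19, and its call was lost without postnatal replicate 1 or 3, without fetal replicate 1 or 3 and under that rescaling. Of the plasma inhibitors, Serpina1, encoding alpha-1-antitrypsin, stood at 46.1, 46.8 and 58.2 in the postnatal libraries, against 115, 293 and 172 in the fetal ones (log2 difference -1.82 ± 0.30). A2m, encoding alpha-2-macroglobulin, stood at 2.38, 7.61 and 3.00 in the postnatal libraries, against 16.3, 301 and 18.9 in the fetal ones (log2 difference -3.27 ± 1.02), and its fall did not pass without postnatal replicate 3 (limma adjusted p = 0.0636, the highest with any 1 library left out). Both were highest in fetal replicate 2, and the part of that library's liver markers in these differences was not tested.

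Further serine protease genes, of acinar and other cells, were taken from a list of 43. Of the 32 tested, 18 rose, 4 fell and 10 did not pass, with a median log2 difference of 0.56, and after rescaling to the plain sum 9 rose and 6 fell. Beside this count, mesenchyme markers summed to 6523 to 11508 in the postnatal libraries and 1426 to 2170 in the fetal ones, and endothelial markers to 236 to 382 in the postnatal libraries and 108 to 160 in the fetal ones. Some genes of the list known from stroma, complement or mast cells rose on the log2 scale, among them C1s (3.25), Tpsab1 (2.57) and Htra1 (2.24). Others did not: the complement genes Masp1 (0.27) and Masp2 (0.22) did not pass, and the mast cell gene Mcpt1 fell (-1.22). The call of Mcpt1 was lost without postnatal replicate 1 or 3 and without fetal replicate 1 or 2. The part of the mesenchyme and endothelial markers in these differences was not tested. The largest rise was that of Klk1, encoding tissue kallikrein, which acinar cells make, and which stood at 1445, 474 and 500 in the postnatal libraries, against 7.34, 19.4 and 11.0 in the fetal ones (log2 difference 5.79 ± 0.47; limma adjusted p = 6.53e-05). Its libraries ranked as those of Cela2a did, with postnatal replicate 1 and fetal replicate 2 highest of their groups. The largest fall was that of Plg, encoding the liver protein plasminogen, at 0.202, 0.723 and 0.341 in the postnatal libraries, against 18.5, 101 and 23.6 in the fetal ones (log2 difference -4.70 ± 0.56; limma adjusted p = 3.10e-04). Plg too was highest in fetal replicate 2, the library with the high liver markers. Plg and Mcpt1 passed the filter on low values only through their fetal libraries and Tpsab1 only through its postnatal ones, so their tests only describe.

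Genes of the zymogen granule and of acinar secretion were taken from a list of 27, of which 21 were tested. Of these, 8 rose, 2 fell and 11 did not pass, with a median log2 difference of 0.25. Without postnatal replicate 1, 8 rose and 8 fell, and after rescaling to the plain sum 6 rose and 7 fell. Cuzd1 and Zg16, genes of zymogen granule proteins, rose most, by 6.27 ± 0.48 (limma adjusted p = 5.20e-05) and 6.22 ± 0.63 (limma adjusted p = 1.52e-04). Cuzd1 passed the filter on low values only through its postnatal libraries, so its p value only describes. Zg16 stood at 6974, 1862 and 2249 in the postnatal libraries, against 18.0, 82.5 and 43.6 in the fetal ones. Aqp8, encoding a water channel, fell by 1.59 ± 0.39.

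The other acinar enzymes spanned a range like that of the proteases. Of the 11 tested, 8 rose, 1 fell and 2 did not pass, with a median log2 difference of 2.13, and the largest rises were those of Pla2g1b (8.76 ± 0.95) and Cpb1 (8.69 ± 1.01). Of 8 acinar transcription factor genes none rose and 4 fell, with a median log2 difference of -0.50; the largest falls were those of Ptf1a, encoding the bHLH subunit specific to PTF1 (-3.16 ± 0.31; limma adjusted p = 1.35e-04), and Nr5a2 (-1.62 ± 0.33).

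Likeness to each protease gene was measured over the 6 libraries by Pearson's r of log2(scaled CPM + 1) among 9761 other genes whose mean reached 10 in 1 of the groups. The libraries fall into 2 groups and share depth and acinar content, and r disregards the size of a difference, so these values only describe. Prss3b was most like Pla2g1b (r = 0.9997), Cpb1 (0.9984) and LOC312273 (0.9984), and Cela2a most like the trefoil factor gene Tff2 (0.9989), Pla2g1b (0.9982) and LOC312273 (0.9977). Ctrc was most like Cuzd1 (0.9995), Fxyd1 (0.9983) and Spink1l (0.9981), and Ctrl most like Rabac1 (0.9994), Zg16 (0.9989) and Pnliprp2 (0.9980). Cela3b was most like the colipase gene Clps (0.9974), followed by Slc9a7 and Depdc7, and Clps stood at 13481, 4863 and 4430 in the postnatal libraries, against 1147, 2178 and 1756 in the fetal ones. Prss1 was most like Hsd17b13 (0.9991), Ptpn6 (0.9991) and Tlr3 (0.9988), although Ptpn6 differed by only 0.52 between the ages on the log2 scale, and Cela1 was most like Tmem184a, Kctd14 and Dcaf11. The 3 most alike were Aldh2, Cd47 and Tmem160 for Ctrb1, Pnpla7, Ppard and Snx33 for Try5, and Rrnad1, Ifrd1 and Fam174b for LOC683849. Genes with r of at least 0.99 numbered 50 for Ctrc, 43 for Cela2a, 35 for Ctrl, 34 for Prss1 and 25 for Prss3b, against 2 for Try5 and 3 each for LOC683849, Ctrb1 and Cela3b.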

How the data were processed

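Total RNA of rat islets was sequenced in 3 postnatal and 3 fetal libraries, after ribosomal depletion with a stranded kit per the labels' protocols. The submitters' processing notes name TopHat2 2.0.8b and edgeR 3.30.3; what each was used for, the genome build and the counting method are unstated in the labels. The deposited table holds a signal per gene, read counts scaled per library, and whole reads were recovered from its steps for 100% of values (tolerance 0.001 reads). Library totals were 26.1 to 37.8 M reads, and a row without a gene name, left out, held at most 3.19e-05% of them.

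The deposited values, called scaled CPM here, were tested with limma 3.58.1 in R 4.3.3 on log2(value + 1), two-sided, with the trend option and Benjamini-Hochberg adjustment over the 12926 genes that reached 1 in 3 or more libraries. Fold changes on this scale understate those of low genes. The fit was tested on simulated data with far fewer changed genes than here and the same relative spread for every gene, so nothing is read from that test for these data. The alternatives were other pseudocounts, filters and scalings, a replicate block, each library left out, and edgeR 4.0.16 and DESeq2 1.42.0 on the recovered reads.

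The members and lists were chosen with earlier results of these data known. Genes named beside the members are the 3 most alike by correlation, the 2 largest called changes of each list, further family genes and list genes that were not called. Ctsb, Ctsd, Serpina1, A2m, Aqp8, C1s, Tpsab1, Htra1 and Mcpt1, and the promoters of Cela1, Cela3b, LOC683849, Prss1 and Prss2, were chosen after their values were seen. Shares were planned per coding length, but no lengths were at hand, so levels are not compared between genes per molecule. Of 177 list entries, 153 matched the table. Promoters are RefSeq's for GRCr8.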

Additional observations from a re-analysis of the deposited data

How the results depend on the processing

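Under 19 alternative settings the log2 difference of every protease gene kept its sign, 9 of the 10 genes stayed called higher and Ctrb1 stayed uncalled. Over all genes, those called higher ran from 1780 of 12863 tested, rescaled to the plain sum, to 4381 of 13210, rescaled without the members and other acinar enzymes. Nothing is read from the count of the 10, because they were chosen on this contrast. The number of genes called ran from 6868 to 8608, and from 6886 to 8475 with 1 library left out. In the list of zymogen granule and secretion genes, 10 were called with all libraries and 8 to 16 with 1 library left out, the 16 being without postnatal replicate 1, where 6 more genes fell; the cause was not tested. Try5 depended most on the setting, with a log2 difference of 7.32 in limma, 9.28 with a pseudocount of 0.1, 5.39 with a pseudocount of 5, and 12.1 with edgeR or DESeq2 on the reads; its fetal values rest on 5 to 9 reads and its postnatal values differ 297 times, and the cause was not tested. With a replicate block, 7426 genes were called, 3563 higher and 3863 lower, and the call of Ctsb was lost. Deviations of same-numbered libraries from their group means had correlations of -0.21, 0.10 and -0.25 for replicates 1, 2 and 3. Those of differently numbered libraries ran from -0.36 to 0.43. With 3 libraries per group these values cannot decide whether same-numbered libraries share more than a number. Without fetal replicate 2 and postnatal replicate 1, a setting chosen after seeing the data, 3786 genes were higher and 4089 lower. Shares per coding length were not run, for want of lengths.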
